A study of Mus musculus with 12 samples.

Results

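The genes described here were 10 components of the cardiac intercalated disc, namely the gap junction genes Gja1, Gja5 and Gjc1, the adherens junction gene Cdh2, the desmosome genes Dsp, Pkp2, Jup, Dsg2 and Dsc2, and the scaffold gene Tjp1. They were selected by symbol from a table of 25171 loci counted in mouse heart RNA, and all 10 had enough counts to be tested in every comparison. The intercalated disc is the end-to-end contact between cardiomyocytes. Gap junctions, built of connexins, pass ions and small molecules and so carry the electrical impulse from cell to cell. Adherens junctions couple the actin of neighbouring sarcomeres, desmosomes couple their intermediate filaments, and variants of desmosomal genes are known for causing arrhythmogenic cardiomyopathy in patients.

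RNA-seq was performed on 12 hearts, 3 in each of 4 groups, to ask what changes when an expanded GGC repeat of NOTCH2NLC is expressed in the heart. All mice carried a conditional NOTCH2NLC-(GGC)98 transgene at the Rosa26 site, silenced by a loxP-flanked stop sequence that Cre recombinase removes. EIIa-tg mice (E2a-tg in the labels) also carried EIIa-Cre, which acts in all tissues, and EIIa-ctl were littermates without this Cre, all collected at day 30. Myh6-tg and Myh6-ctl mice are labelled as carrying Myh6-creERT2, a tamoxifen-activated Cre made in cardiomyocytes. From day 60 both received 3 injections at 75 mg/kg body weight, one every other day, of tamoxifen (20 mg/ml in corn oil) in Myh6-tg and of corn oil in Myh6-ctl, and hearts were taken at day 90. Tamoxifen and transgene activation cannot be told apart in the Myh6 comparison, and age, Cre and injection cannot be told apart between the models. RNA came from bulk heart tissue, whose parts are not named, so that fewer cells of a type and less RNA per cell cannot be told apart either.

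Each heart gave between 38343106 and 50969834 counts, of which the 10 genes together took between 0.128% and 0.241%. Cardiomyocyte genes were abundant in every heart, while 8 neuronal genes, examined because the extraction text names brain, summed to at most 56.4 CPM (counts scaled to the library size) in any heart. Esr1, whose ligand-binding part is used in creERT2 proteins, had between 53433 and 103037 counts in the hearts labelled Myh6-ctl but between 53 and 116 counts in those labelled Myh6-tg, against 15 to 54 in EIIa hearts. This does not follow from labels that give both Myh6 groups the same Cre, and its cause was not tested. Whatever made Esr1 differ cannot be told apart from tamoxifen and transgene activation in the Myh6 comparison. The group names below are those of the labels. Myh6-tg replicate 1 stood apart from replicates 2 and 3, with a chi-square per gene of 227 and 272 against 33.7 between replicates 2 and 3. EIIa-tg replicate 2 also lay further from replicates 1 and 3, at 80.1 and 97.1 against 39.6 between those. Pairs of Myh6-ctl hearts had values from 102 to 135. Y-linked counts were present in replicate 1 of each group and nearly absent (at most 2 counts) elsewhere. What sets Myh6-tg replicate 1 apart therefore cannot be told apart from sex, while EIIa-tg replicate 2 had 0 Y-linked counts. Counts that 13 mitochondrially encoded genes took were 34.2% to 36.7% in EIIa-ctl, 28.5% to 32.3% in EIIa-tg, 31.8% to 38.3% in Myh6-ctl and 15.5% to 18.6% in Myh6-tg hearts. Levels are therefore given as CPM scaled by the trimmed mean of M-values (TMM), which does not rest on the total alone.

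Gja1, encoding connexin 43 of the working myocardium, lies at chr10:56377330-56402513 on the plus strand (GRCm38, GENCODE M21), and its coding sequence of 1146 bases sits in 1 exon. Gja5, encoding the connexin 40 of atrial and conduction tissue, lies at chr3:96904693-97077416, and Gjc1, encoding connexin 45, at chr11:102799579-102819700. RefSeq promoters were at hand for Gja1, Gja5, Jup, Dsp and Tjp1. The bases upstream of the RefSeq start are printed for Gja1, on which most results below turn, beside Gja5, a connexin that did not pass the test, and Jup, a member that exceeded Gja1 in some hearts. Each run has 100 bases, 5′ to 3′ on the strand of its gene, in GRCm38.p6, at chr10:56377200-56377299 for Gja1, chr3:97032302-97032401 for Gja5 and chr11:100397791-100397890 (minus strand) for Jup. Capitals mark matches to the motifs named after the sequences.
Gja1: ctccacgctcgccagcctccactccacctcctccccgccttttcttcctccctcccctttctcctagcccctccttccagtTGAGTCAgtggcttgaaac
Gja5: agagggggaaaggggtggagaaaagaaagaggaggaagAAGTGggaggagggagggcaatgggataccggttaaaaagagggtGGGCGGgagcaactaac
Jup: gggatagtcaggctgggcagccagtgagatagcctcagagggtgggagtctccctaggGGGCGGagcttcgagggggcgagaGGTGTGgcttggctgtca

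Motifs were searched on both strands of windows of 300 bases, 250 before and 50 after the start. The Gja1 run holds the AP-1 motif TGANTCA, with its first base at position -19 from the start, a motif that 7.81% of 32851 promoter windows contain. The Gja5 run holds the NK2 half-site AAGTG at -62 (46.4% of windows) and the GC box GGGCGG at -17 (35.7%). The Jup run holds a GC box at -42 and the T-box half-site GGTGTG at -18 (19.1%). Upstream of the printed runs, the Gja1 window holds the GATA motif AGATAA at -135 (11.2%) and the Jup window another GC box at -112. The TATA motif TATAAA was also searched and had 0 matches in the windows of these genes. These are matches of letters and were not tested for binding.

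Per length of transcript, Gja1 was the most abundant of the 10 genes in all control hearts. FPKM values, which the authors computed by scaling fragments to transcript length and library size, were 109 ± 12.6 for Gja1 in EIIa-ctl (SD, n = 3), followed by 74.7 ± 0.897 for Jup (plakoglobin, shared by desmosomes and adherens junctions) and 55.8 ± 4.99 for Dsp (desmoplakin, the link to desmin filaments). Cdh2 (N-cadherin) had 45.2 ± 0.219 FPKM and Pkp2 (plakophilin 2) 38.6 ± 0.741 FPKM. Among the lower genes Gjc1 had 14.4 ± 1.80 FPKM, Tjp1 (ZO-1) 12.9 ± 0.229 FPKM and Dsg2 (desmoglein 2) 12.6 ± 0.178 FPKM. Gjc1, at 13.3 FPKM or more, lay above Tjp1 (at most 13.1) and Dsg2 (at most 12.8) in EIIa-ctl hearts. Tjp1 and Dsg2 changed places between hearts. Dsc2 (desmocollin 2) had 8.37 ± 0.163 FPKM and Gja5 2.70 ± 0.509 FPKM, and Gja5 was lowest in all 12 hearts. In Myh6-tg hearts the order was another one. Gja1, at 61.4, 26.4 and 26.8 FPKM, came after Jup, Dsp, Pkp2 and Cdh2 in all 3.

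**Figure D1:**
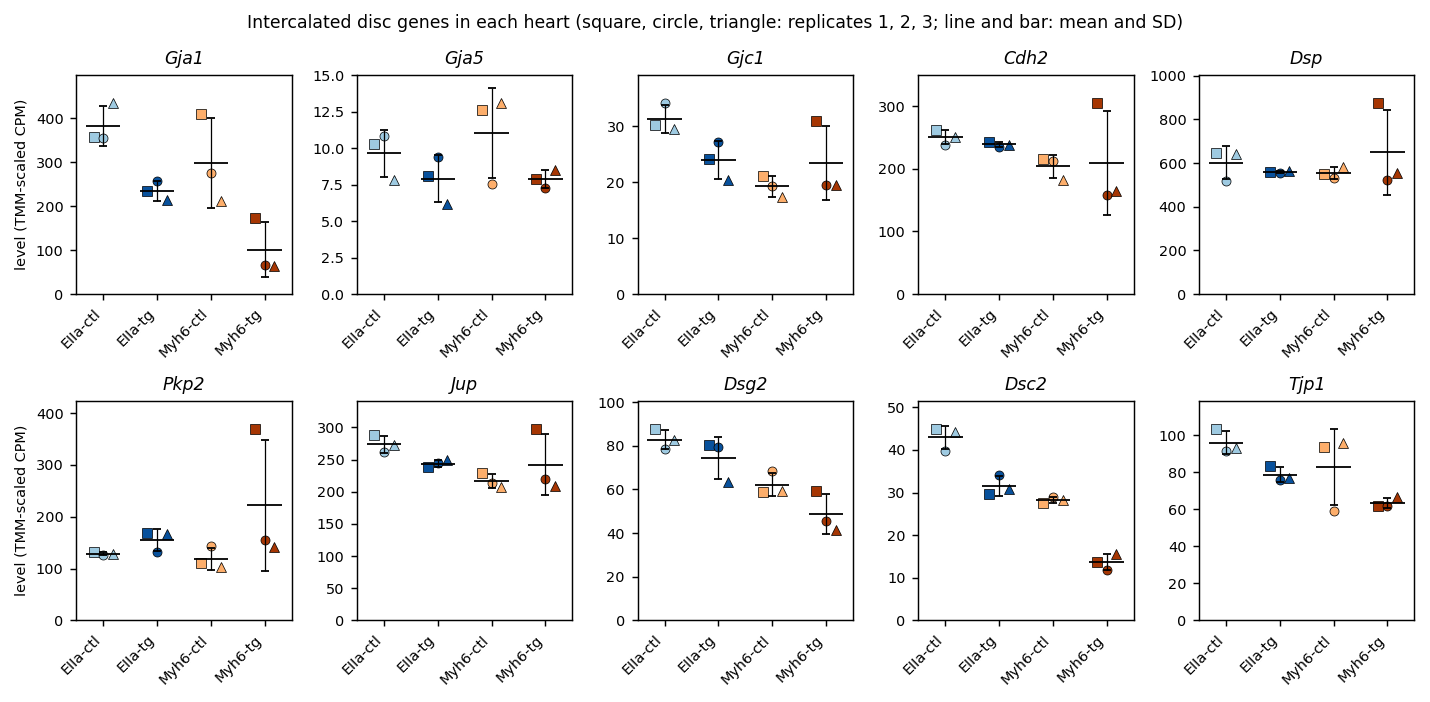
Level of each of the 10 genes in every heart, in TMM-scaled CPM on linear axes from 0, for the 4 groups (square, circle and triangle are replicates 1, 2 and 3, lines and bars the mean and SD of 3 hearts). Gja1 and Dsc2 are lower in all transgenic hearts than in all controls of their model, and Myh6-tg replicate 1 is highest for Pkp2, Dsp, Cdh2 and Jup.

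Gja1 fell in both models. In the EIIa model controls had 358, 354 and 434 CPM and transgenic hearts 235, 257 and 213 CPM. All 3 transgenic hearts lay under all 3 controls, a change of -0.70 on the log2 scale (SE 0.12, adjusted p = 0.0178 by edgeR's quasi-likelihood test with Benjamini-Hochberg adjustment), or 1.62-fold lower. In Myh6-ctl hearts it had 410.4, 274 and 210.5 CPM and in Myh6-tg hearts 173, 66.2 and 63.1 CPM. Again the groups did not overlap, although replicate 1 was the highest of its group in both, and the log2 change was -1.55 (SE 0.44, edgeR adjusted p = 0.0478), or 2.92-fold lower. The wide spread among Myh6 hearts shows in the 95% interval, -2.57 to -0.52, against -0.98 to -0.41 in EIIa hearts. Both intervals are unadjusted. Without any 1 of 5 hearts (each Myh6-ctl heart, Myh6-tg replicate 2 or Myh6-tg replicate 3) the Myh6 call was lost, with an adjusted p of up to 0.150, and without Myh6-tg replicate 1 the log2 change was -2.19 with an adjusted p of 0.00318. In EIIa hearts the call was lost without replicate 1 or 3 of either group, with an adjusted p of up to 0.0806.

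The other connexins did not pass the test. The EIIa controls had 30.2, 34.2 and 29.6 CPM of Gjc1 and the EIIa-tg hearts 24.2, 27.3 and 20.5 CPM. The groups did not overlap, and the log2 difference was -0.38 (SE 0.13, edgeR adjusted p = 0.0772). In Myh6 hearts Gjc1 lay the other way, at 21.1, 19.3 and 17.4 CPM in controls and 31.1, 19.5 and 19.6 CPM in Myh6-tg, a log2 difference of 0.30 (SE 0.23, edgeR adjusted p = 0.393). Only replicate 1 stood clear of the controls, and replicates 2 and 3 lay within their range. Gja5, at most 13.1 CPM in any heart, differed by -0.28 (edgeR adjusted p = 0.349) and by -0.48 (0.237) on the log2 scale, with overlap in both models. Its annotated span overlaps other genes on the opposite strand, among them Gpr89, and the strand of the reads is not given in the sources used here.

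The balance among connexin genes was described with FPKM, which allows levels of different genes to be added. Gja1 made up 84.4% to 88.8% of the FPKM of the 3 connexin genes in EIIa-ctl, 83.2% to 84.6% in EIIa-tg and 83.8% to 90.1% in Myh6-ctl hearts. In Myh6-tg hearts it made up 76.1%, 64.7% and 61.6%, under every other heart. Gjc1 made up 20.6%, 28.6% and 30.6% there, against 7.12% to 11.1% in Myh6-ctl hearts. The summed FPKM of the 3 genes was 126, 81.9 and 83.7 in Myh6-ctl and 80.8, 40.8 and 43.5 in Myh6-tg hearts. These shares are descriptions, with no test, and they weigh Gja1 most because it is the most abundant.

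**Figure D2:**
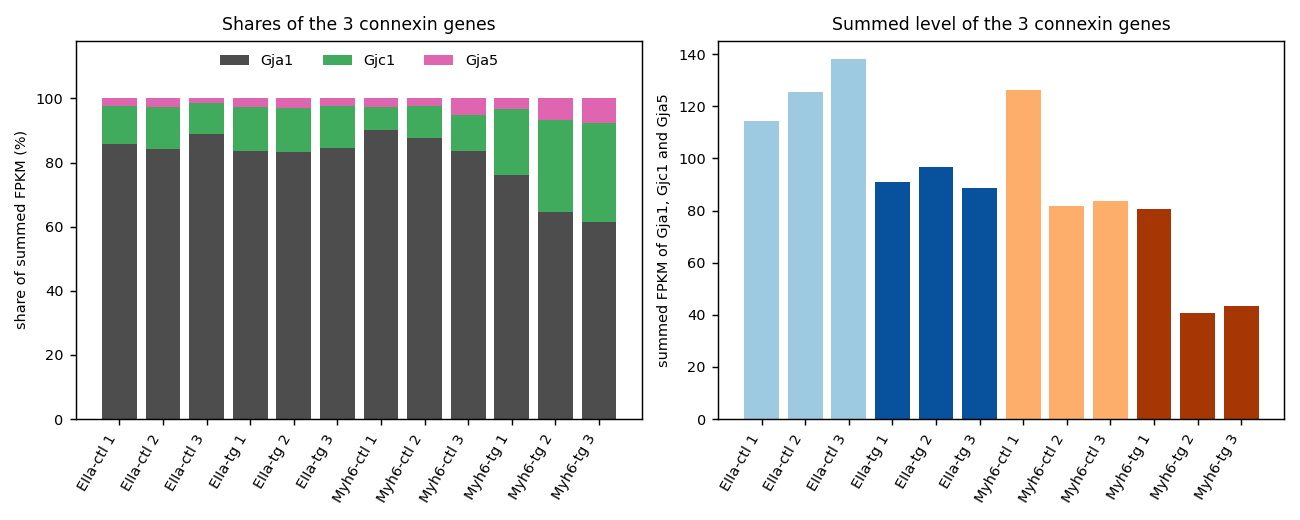
Left, share of Gja1, Gjc1 and Gja5 in their summed FPKM (in %) in each of the 12 hearts. Right, the summed FPKM itself; the Gja1 share is between 83.2% and 90.1% in 9 hearts and between 61.6% and 76.1% in the 3 Myh6-tg hearts.

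Cdh2, at chr18:16588877-16809246, encodes the cadherin that holds the adherens junctions of the disc together. In the EIIa model it had 261, 238 and 251 CPM in controls and 244, 235 and 238 CPM with the transgene active, a log2 difference of -0.06 (95% interval -0.27 to 0.14, edgeR adjusted p = 0.666). In Myh6-ctl hearts it had 216, 213 and 183 CPM and in Myh6-tg hearts 305, 157 and 164 CPM. Replicate 1 lay above and replicates 2 and 3 below all controls, so that the log2 difference was 0.05 with an interval of -0.60 to 0.71 (edgeR adjusted p = 0.919). Without Myh6-tg replicate 1 it was -0.33 (adjusted p = 0.175). The EIIa interval excludes a change as large as that of Gja1, whereas the Myh6 interval is wide.

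Of the 5 desmosome genes, Dsc2 fell in both models and the other 4 passed the test in neither. Dsp lies at chr13:38151294-38198577, Pkp2 at chr16:16213318-16272712, Jup at chr11:100368958-100397763 and Dsg2 at chr18:20558074-20604521. A gene annotated on the opposite strand overlaps Dsg2, Dsp and, above, Cdh2, and without strand its reads cannot be told apart from theirs. Dsc2, at chr18:20030633-20059554, encodes desmocollin 2, a desmosomal cadherin that meets its partners in the gap between cells. Its EIIa-ctl levels were 44.8, 39.8 and 44.2 CPM and its EIIa-tg levels 29.6, 34.2 and 30.8 CPM. The log2 change was -0.44 (SE 0.10, edgeR adjusted p = 0.0282), or 1.36-fold lower. In Myh6-ctl hearts it had 27.5, 29.0 and 28.4 CPM and in Myh6-tg hearts 13.7, 11.7 and 15.6 CPM. No Myh6-tg heart came near a control, and replicate 1 did not stand apart for this gene. The log2 change was -1.03 (SE 0.17, edgeR adjusted p = 0.00991), or 2.04-fold lower. By edgeR, Dsc2 was thus the 1 member that passed the study's limits for a differentially expressed gene (adjusted p under 0.01 and at least 2-fold). The study set these limits on DESeq2 results, to which they were not applied here. Without Myh6-tg replicate 2 its adjusted p was 0.0532. In EIIa hearts the call was lost without replicate 1 or 3 of either group, with an adjusted p of up to 0.106. On the FPKM scale, by limma, Dsc2 passed the test in neither model.

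Dsg2, the partner cadherin of Dsc2, ranged from 78.5 to 87.5 CPM in controls of the EIIa model and from 63.4 to 80.3 CPM in EIIa-tg, a log2 difference of -0.15 (edgeR adjusted p = 0.382). In Myh6 hearts it had 58.9 to 68.3 CPM in controls and 59.2, 45.7 and 41.4 CPM in Myh6-tg, a log2 difference of -0.33 (95% interval -0.76 to 0.10, adjusted p = 0.252). Both models placed Dsg2 below controls on this scale without a call. The sign of its difference turned on the FPKM scale without TMM, to 0.04 in EIIa and 0.05 in Myh6 hearts.

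Pkp2, which anchors desmosomal cadherins to desmoplakin, was the 1 member with a positive log2 difference in EIIa hearts and had the largest in Myh6 hearts. The EIIa-ctl levels were 132, 126 and 128 CPM against 168, 131 and 167 CPM in EIIa-tg, a log2 difference of 0.28 (SE 0.11, edgeR adjusted p = 0.120). In Myh6-ctl hearts it had 111, 143 and 102 CPM and in Myh6-tg hearts 369, 155 and 141 CPM. The groups overlapped in both models. The Myh6 log2 difference of 0.92 (SE 0.38, edgeR adjusted p = 0.130) was 0.34 without Myh6-tg replicate 1. Between same-numbered Myh6 hearts, which the labels do not pair, Pkp2 was higher in Myh6-tg in 3 of 3, by 0.12 to 1.73 on the log2 scale. The same held for Gjc1 (0.01 to 0.56) and Jup (0.01 to 0.38). Gja1, Gja5 and Dsc2 were higher in 0 of 3, and Cdh2, Dsp, Dsg2 and Tjp1 in 1 of 3. The share over all genes was not computed. With the replicate number as a block the edgeR adjusted p of Pkp2, Gjc1 and Jup was 0.136, 0.359 and 0.554. On the FPKM scale, where the median log2 difference of all genes was 0.16 in EIIa and 0.34 in Myh6 hearts, Pkp2 passed the test in both models with the filter on low values and in neither without it.

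Dsp ranged from 517 to 648 CPM in EIIa-ctl and from 552 to 562 CPM in EIIa-tg, a log2 difference of -0.10 (edgeR adjusted p = 0.583). In Myh6-tg hearts it had 874, 522 and 553 CPM against 531 to 583 CPM in controls, a log2 difference of 0.25 (adjusted p = 0.537). Replicate 1 was again the 1 heart above the controls. Jup ranged from 262 to 288 CPM in EIIa-ctl and from 238 to 249 CPM in EIIa-tg, which did not overlap, with a log2 difference of -0.16 (edgeR adjusted p = 0.238). In Myh6 hearts Jup had 208 to 228 CPM in controls and 297, 219 and 209 CPM in Myh6-tg, a log2 difference of 0.18 (adjusted p = 0.573). On the FPKM scale the Jup difference turned to 0.04 in EIIa hearts and was 0.56 in Myh6 hearts, where it passed the test.

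Tjp1, at chr7:65296165-65527781, encodes ZO-1, which binds the tail of connexin 43 at the edge of gap junction plaques. EIIa-ctl levels were 103, 91.4 and 93.1 CPM and EIIa-tg levels 83.1, 75.5 and 76.9 CPM, without overlap. The log2 difference was -0.28 (SE 0.09, edgeR adjusted p = 0.0647). In Myh6-ctl hearts it had 93.8, 59.0 and 95.7 CPM and in Myh6-tg hearts 61.6, 61.7 and 66.4 CPM. The low control, replicate 2, lay under all transgenic hearts, and the log2 difference was -0.37 (adjusted p = 0.272). A pseudogene on the opposite strand and unconfirmed gene models on the same strand overlap Tjp1, and their reads may not be told apart from its own.

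**Figure D3:**
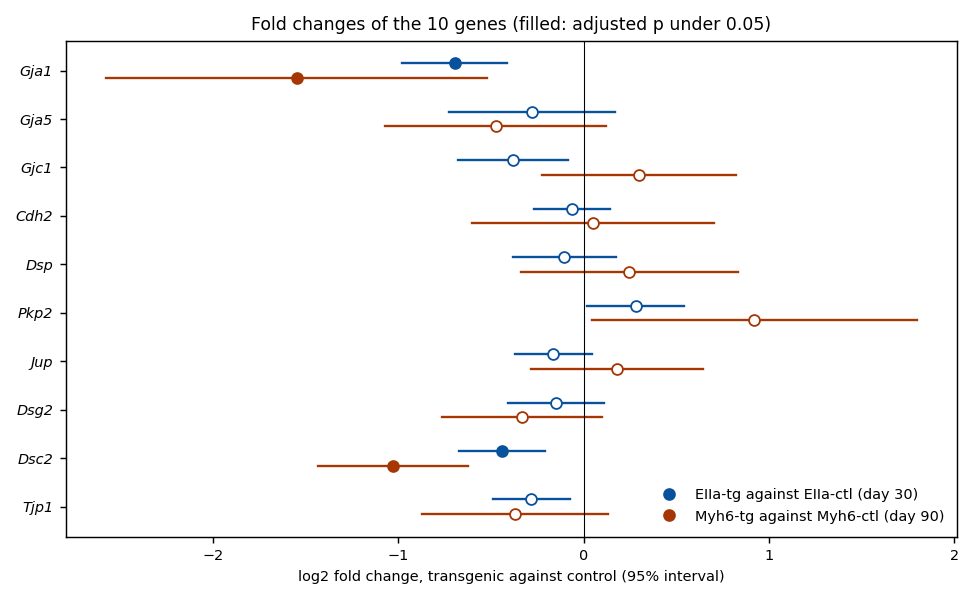
Log2 fold change of each gene in transgenic against control hearts, with 95% intervals, for the EIIa model at day 30 and the Myh6 model at day 90. Filled points passed an adjusted p of 0.05, which only Gja1 and Dsc2 did, below 0 in both models.

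Counted together, 2 of the 10 genes fell and 0 rose in EIIa-tg hearts, where 8.30% of all 14908 genes tested fell and 8.65% rose. In the EIIa comparison 5 of 10 members did not overlap between groups, against 41.1% of all genes, and 9 of 10 had a negative log2 difference, with a median of -0.22 against 0.02 over all genes. In Myh6-tg hearts 2 fell and 0 rose, where 9.38% of 15298 genes fell and 8.96% rose. There 2 of 10 did not overlap against 40.1% of all genes, and by edgeR 1 of 10 passed the study's limits against 3.97%. The median of the members was -0.14 there, against 0.03 over all genes, with 5 genes on either side of 0. Neither the counts of calls nor those of groups without overlap set these genes apart from the genes tested. Without replicate 1 of any group, a choice made after the data were seen, 0 members and 0 genes in all passed edgeR's test in EIIa hearts (2824 genes at an unadjusted p under 0.05), and Gja1 and Dsc2 still passed it in Myh6 hearts.

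Whether the models differed was tested as the Myh6 change minus the EIIa change over all 12 hearts. By edgeR 0 members passed at an adjusted p under 0.05, where 1.65% of 15929 genes had a higher and 2.27% a lower change in Myh6-tg hearts. Gjc1 and Dsc2, 2 of 10, had an unadjusted p under 0.05, as did 19.4% of all genes. DESeq2 called 1, Dsc2. The lowest adjusted p was that of Dsc2, 0.101, for a difference of -0.59 (95% interval -0.996 to -0.19, unadjusted). For Gjc1 the difference was 0.68 (interval 0.10 to 1.26, edgeR adjusted p = 0.186), and for Gja1 it was -0.85 (interval -1.93 to 0.23, adjusted p = 0.377). Without Myh6-tg replicate 1 the Gja1 difference was -1.50 and passed the test, with an adjusted p of 0.0121.

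The 2 control groups differ in age, Cre and injection, and were compared to see how far the starting levels lay apart. Of the 10 genes 9 had lower levels in Myh6-ctl than in EIIa-ctl hearts, with a median log2 difference of -0.31 against 0.02 over all genes, and 5 did not overlap, against 17.5% of 14990 genes. By edgeR 0 passed at an adjusted p under 0.05, which 0.0200% of genes passed as higher and 0.0133% as lower. At an unadjusted p under 0.05 there were 4, Gjc1, Dsc2, Dsg2 and Jup, where 11.3% of all genes had one. Gjc1 differed by -0.69 (SE 0.14, edgeR adjusted p = 0.129) and Dsc2 by -0.59 (SE 0.12, adjusted p = 0.135), and DESeq2 called both. For Dsc2 the control gap put Myh6-ctl hearts, at 27.5 to 29.0 CPM, just under the EIIa-tg hearts, at 29.6 to 34.2 CPM. Each transgenic group is therefore compared above with controls of its own model.

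Ratios between members within a heart do not depend on its scaling. The pairs shown were chosen after the values were seen, and their ratios of CPM are given with no test. Pkp2 over Gja1 was 0.295 to 0.370 in EIIa-ctl, 0.511 to 0.787 in EIIa-tg and 0.270 to 0.521 in Myh6-ctl hearts. In Myh6-tg hearts it was 2.13, 2.35 and 2.24, so that replicate 1 lay beside the other two although its levels of both genes were the highest. Gjc1 over Gja1 was 0.0683 to 0.0964 in EIIa-ctl, 0.0963 to 0.106 in EIIa-tg, 0.0513 to 0.0826 in Myh6-ctl and 0.180 to 0.310 in Myh6-tg hearts. Dsg2 over Dsc2, the balance of the 2 desmosomal cadherins, was 1.87 to 1.97 in EIIa-ctl, 2.06 to 2.72 in EIIa-tg, 2.10 to 2.35 in Myh6-ctl and 2.66 to 4.31 in Myh6-tg hearts. Of 6 ratios computed, these 3, Pkp2 over Dsc2 and Cdh2 over Gja1 were higher in all Myh6-tg than in all Myh6-ctl hearts. Pkp2 over Dsp overlapped in both models, at 0.175 to 0.269 in Myh6-ctl against 0.256 to 0.421 in Myh6-tg and at 0.199 to 0.243 in EIIa-ctl against 0.238 to 0.3005 in EIIa-tg hearts. EIIa-tg and EIIa-ctl hearts met closely for Gjc1 over Gja1.

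**Figure D4:**
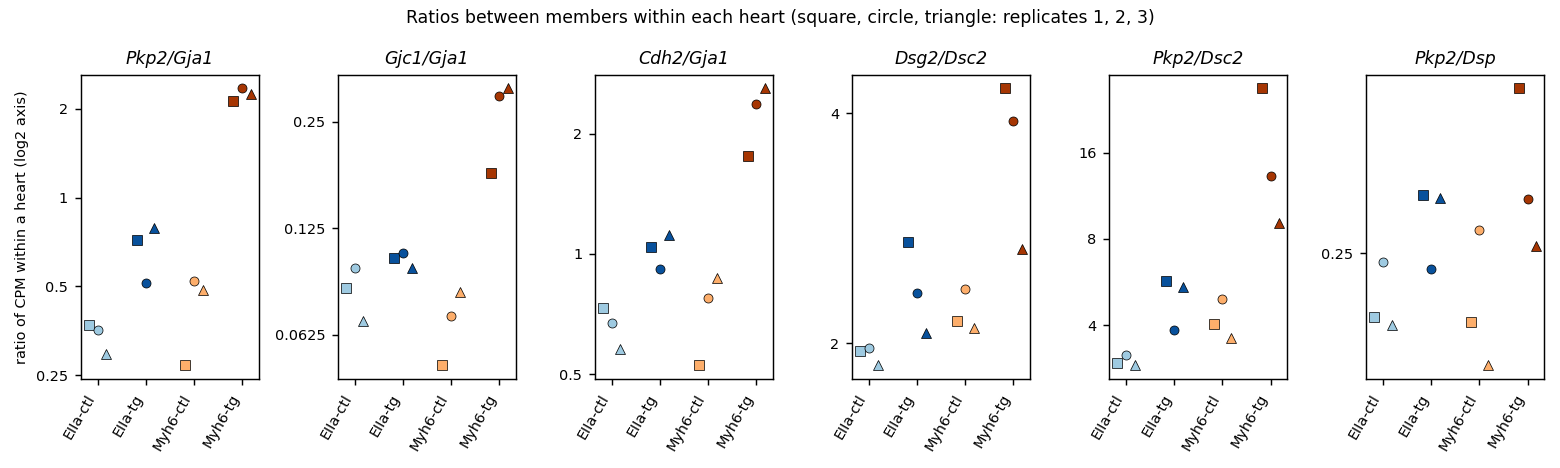
Ratio of CPM between members within each heart on log2 axes, for the 4 groups (square, circle and triangle are replicates 1, 2 and 3). Pkp2 over Gja1 is 2.13 to 2.35 in Myh6-tg and at most 0.787 in the other 9 hearts.

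Sums of cell markers also differed between groups. The summed CPM of 12 cardiomyocyte genes, none of them at 0 in any heart, was 48581 to 59168 in EIIa-ctl and 25120 to 43152 in EIIa-tg, 37636 to 50854 in Myh6-ctl and 12263 to 37566 in Myh6-tg hearts. In EIIa hearts 2 of the 12 fell, and in Myh6 hearts 6 fell, and none rose in either. Log2 differences were positive, without a call, for 1 of the 12 in EIIa and 3 in Myh6 hearts. In EIIa-ctl hearts Myh6, Actc1 and Pln weighed most, with means of 12504, 11398 and 7242 CPM. EIIa-tg means were 4918, 6088 and 4188 CPM, Myh6-ctl means 9107, 11291 and 5493 CPM and Myh6-tg means 1487, 6801 and 948 CPM. Tnnt2 had means of 4099 and 4352 CPM in EIIa-ctl and EIIa-tg and 3968 and 5328 CPM in Myh6-ctl and Myh6-tg. Relative to the sum of the 12, the Gja1 level in EIIa-tg hearts was 0.12 higher on the log2 scale (exact permutation p = 0.5, two-sided, n = 3 against 3). In Myh6-tg hearts it was -0.46 relative to controls without overlap (exact permutation p = 0.1, the smallest that 3 against 3 hearts allow, Benjamini-Hochberg adjusted 0.182 over 20 such tests). The other members had positive differences relative to the sum, from 0.38 for Dsc2 to 1.09 for Pkp2 in EIIa and from 0.16 for Dsc2 to 1.99 for Pkp2 in Myh6 hearts. The reference decided several signs. Against the sum of Tnnt2, Actn2, Tnni3 and Mybpc3 alone, Gja1 differed by -0.46 in EIIa and -1.49 in Myh6 hearts, Dsc2 by -0.21 and -0.87, and Pkp2 by 0.51 and 0.96.

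Markers of other cells moved too, and their part in the results was not tested. Summed CPM of 8 fibroblast genes was 1492 to 2173 in EIIa-ctl and 2730 to 3938 in EIIa-tg, 1970 to 2523 in Myh6-ctl and 3259 to 8011 in Myh6-tg hearts. For 8 macrophage and leukocyte genes it was 374 to 582, 804 to 1052, 719 to 1247 and 780 to 1855 CPM in the same order, and for 8 endothelial genes 1100 to 1263, 881 to 978, 716 to 1461 and 702 to 865 CPM. The fibroblast sum was higher in all transgenic hearts than in the controls of their model, the leukocyte sum in EIIa hearts, and the endothelial sum was lower in all EIIa-tg hearts. Of the 8 fibroblast genes 2 rose in EIIa and 4 in Myh6 hearts (8.65% and 8.96% of all genes), and 1 had a negative Myh6 difference. Mean CPM in Myh6-ctl and Myh6-tg was 86.1 and 1592 for Postn, 165 and 702 for Col1a1, 242 and 138 for Lum, and 15.1 and 18.1 for Tcf21. For 8 smooth muscle and pericyte genes it was 2933 to 3178, 4047 to 5511, 2928 to 4276 and 9394 to 13614 CPM, but most of this was Des, which cardiomyocytes also express. The other 7 genes summed to 1262 to 1502, 1050 to 1380, 1096 to 1380 and 1033 to 1623 CPM, which overlapped in both models. The 7 atrial genes, of which up to 3 were at 0 in a heart, summed to 142 to 388 CPM in EIIa-ctl, 545 to 837 in EIIa-tg, 181 to 1874 in Myh6-ctl and 4271 to 6502 in Myh6-tg hearts, nearly all of it Nppa, a gene that stressed ventricles also express. The other 6 summed to 26.0 to 31.8, 39.7 to 62.6, 29.9 to 52.4 and 65.4 to 177 CPM, and Myl7, Sln and Bmp10 had group means of at most 0.0875 CPM in both control groups and EIIa-tg. In Myh6-tg hearts these 3 had means of 1.93, 0.715 and 0.0287 CPM. Myl4, Dkk3 and Stard10 had means of 1.67, 5.67 and 21.7 CPM in EIIa-ctl and 1.92, 10.2 and 27.6 CPM in Myh6-ctl hearts. They had 3.33, 16.8 and 27.7 CPM in EIIa-tg and 16.3, 94.9 and 12.5 CPM in Myh6-tg hearts. The sum of the 6 genes was higher in all transgenic hearts than in all controls of their model. Gja5, the member known from atrial tissue, did not pass the test in either model. For 8 conduction genes the sum was 53.1 to 58.8, 31.4 to 52.7, 33.7 to 43.7 and 28.5 to 40.8 CPM, and 8 epicardial genes reached at most 49.8 CPM.

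Other genes of the junctions were counted from 5 lists with 75 genes. Over all genes tested, 8.65% rose and 8.30% fell in EIIa-tg hearts, and 8.96% rose and 9.38% fell in Myh6-tg hearts. The counts of the 5 lists were not tested against these shares. Among other connexins and pannexins 7 of 20 were tested in either model, and 1 rose in each, the channel gene Panx1. Its mean level was 2.98 ± 0.786 CPM in EIIa-ctl against 10.04 ± 5.51 CPM in EIIa-tg (SD, n = 3), a log2 change of 1.76 (edgeR adjusted p = 0.0250), and 5.50 ± 1.59 and 29.5 ± 16.0 CPM in Myh6 hearts, a log2 change of 2.44 (0.0147). Thus among the connexin and pannexin genes named here, levels moved both ways, with Gja1 lower and Panx1 higher in both models.

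Of 15 catenins and area composita partners, 4 rose and 3 fell in EIIa-tg and 2 rose and 0 fell in Myh6-tg hearts. Xirp2, an actin-binding protein of the disc, rose by 1.55 in EIIa (edgeR adjusted p = 0.0166) and 1.77 in Myh6 hearts (0.0140) on the log2 scale. Its relative Xirp1 rose by 0.87 (edgeR adjusted p = 0.0251) and by 1.61 (0.00487). Nrap, which binds actin and vinculin, rose by 1.13 in EIIa hearts (edgeR adjusted p = 0.0166), and its Myh6 difference was 1.03 (0.0880). Afdn, the actin adaptor afadin, fell by 0.72 on the log2 scale in EIIa hearts (edgeR adjusted p = 0.0160), and its Myh6 difference was -0.58 (0.328).

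Of the other desmosome and intermediate filament genes, 3 of 6 tested rose in EIIa-tg and 2 of 7 in Myh6-tg hearts, and none fell. Among all genes tested 8.65% rose in EIIa-tg and 8.96% in Myh6-tg hearts. Des encodes desmin, the filament that desmoplakin anchors. It rose from 1688 ± 128 to 3464 ± 865 CPM in EIIa hearts (log2 change 1.04, edgeR adjusted p = 0.0193) and from 2198 ± 860 to 9654 ± 2545 CPM in Myh6 hearts (2.15, adjusted p = 0.0119). Tmem43, a membrane protein gene linked to arrhythmogenic cardiomyopathy, rose by 1.42 (edgeR adjusted p = 0.0166) and 1.87 (0.0138) on the log2 scale. Ppl (periplakin) rose by 0.94 in EIIa hearts (edgeR adjusted p = 0.0404), and its Myh6 difference was -1.14 (0.211). Des thus passed edgeR's test in both models and Dsp, Pkp2 and Jup in neither. Whether their changes differ from that of Des was not tested.

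Of 16 scaffold, trafficking and channel partners of the gap junction, 1 rose and 5 fell in EIIa-tg and 3 rose and 1 fell in Myh6-tg hearts. Ank2 (ankyrin B) fell in both, by 0.98 in EIIa (edgeR adjusted p = 0.0227) and by 1.32 in Myh6 hearts (0.0144) on the log2 scale. The coxsackievirus and adenovirus receptor gene Cxadr, a disc adhesion protein, fell by 0.97 (edgeR adjusted p = 0.0135) in EIIa hearts. Its Myh6 difference, -0.45, did not pass the test. Popdc3 rose by 0.34 in EIIa (edgeR adjusted p = 0.0444) and by 1.10 in Myh6 hearts (0.0112).

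Of 8 other cadherins, 2 of 5 tested fell in EIIa-tg hearts and 0 of 6 passed in either direction in Myh6-tg hearts. Cdh5, the cadherin of endothelial cells, fell by 0.59 (edgeR adjusted p = 0.0217) and Cdh13 by 0.71 (0.0274) on the log2 scale in EIIa hearts. Their Myh6 differences were -0.58 (edgeR adjusted p = 0.180) and -0.48 (0.312). The EIIa calls in the 5 lists depended on single hearts. Without EIIa-ctl replicate 1 or without EIIa-tg replicate 1 edgeR called 0 genes (4036 and 4173 at an unadjusted p under 0.05). Without EIIa-ctl replicate 3 it called 1 gene in all (4018 at an unadjusted p under 0.05). Without EIIa-tg replicate 3 Xirp2 and Cxadr still passed, while the calls of Panx1, Afdn, Nrap, Tmem43, Des, Ppl, Ank2, Cdh5 and Cdh13 were lost. Of the Myh6 calls named above, that of Xirp1 held without any 1 heart. Those of Panx1, Xirp2, Des, Tmem43, Popdc3 and Ank2 were lost without Myh6-ctl replicate 1, with adjusted p between 0.0541 and 0.0687. Panx1 also lost its call without Myh6-ctl replicate 3, and Ank2 without Myh6-tg replicate 2 or 3.

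**Figure D5:**
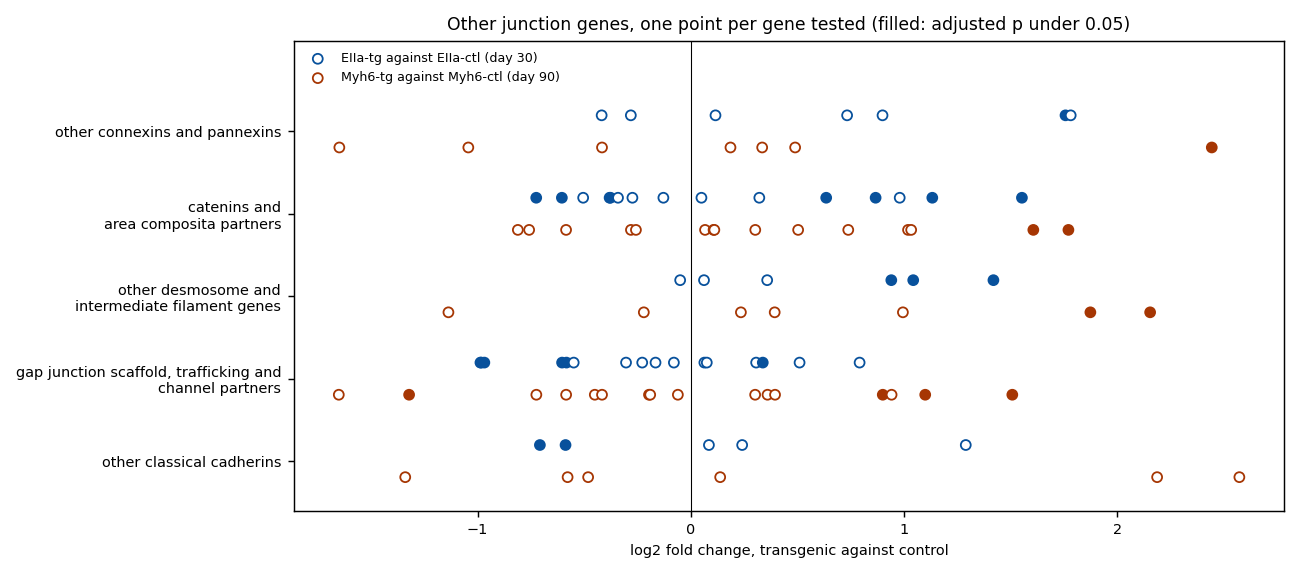
Log2 fold change of the other junction genes tested, one point per gene, in 5 lists and both models, filled where the adjusted p was under 0.05. Filled points lie above 0 in both models for the desmosome and intermediate filament list and on both sides of 0 for the scaffold, trafficking and channel list.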

How the data were processed

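Total RNA of 12 hearts was prepared with the NEBNext Ultra kit, whose strand setting is not given, and sequenced as paired ends; reads were mapped by Hisat2 to GRCm38 per the study's methods, while the submitters' processing notes list HISAT2 2.0.4, StringTie 2.2.1, GRCm39 and mm10. The authors deposited raw counts per gene and FPKM values. Counts were tested in R 4.3.3 with edgeR 4.0.16 (filterByExpr, TMM, glmQLFit, glmQLFTest) over all genes in the 6 hearts of a comparison, 12 for the difference between models, with Benjamini-Hochberg adjustment and a threshold of 0.05. Replicates are separate hearts per the labels, and EIIa-tg replicates 2 and 3, whose genotype entries read e3a_transgenic and e4a_transgenic, were grouped by their titles as E2a-transgenic. Alternatives were DESeq2 1.42.0, RLE factors, other filters, all 12 hearts in one fit, a replicate block, leaving out mitochondrial or NewGene loci (3135, named by the authors), limma 3.58.1 on log2(FPKM + 1 or 0.1) with an FPKM of at least 0.5 in 3 hearts or no filter, and leaving out each heart. Scripts were tested on simulated data.

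Deviations of same-numbered hearts from their group means correlated at 0.26, 0.23 and 0.27 in the Myh6 model. A pair of differently numbered hearts, EIIa-ctl replicate 2 and EIIa-tg replicate 3, reached 0.29. Values of this size therefore do not establish pairing, and the labels give no pairs. The replicate block changed no member's Myh6 call. For replicate 1, which held the Y-linked counts in each group, pairing and sex cannot be told apart. Of 22036 Ensembl identifiers 22022 matched GENCODE M21. The members and lists were chosen with earlier results of these data known. All members were named, and from each wider list up to 3 called genes with the lowest adjusted p in each model, of which some are not reported here. Intervals are for the mean log2 difference and rest on the spread between hearts. Their SE was computed from the log2 change and the statistic of edgeR's quasi-likelihood test. Figures used matplotlib 3.10.9.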

Additional observations from a re-analysis of the deposited data

How the results depend on the processing

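In EIIa hearts 2 members and 2527 genes passed the test. These counts were 0 and 227 with all 12 hearts in one fit and 0 and 1 with limma on log2(FPKM + 1) without a filter. They were 0 and 0 with replicates 2 and 3 only (chosen after the data were seen), and 0 and 0 by edgeR under the study's limits for differential expression. The study applied its limits to DESeq2 results and reported differentially expressed genes in both models, so that edgeR counts under these limits are not the study's counts. Leaving out 1 heart gave 0 to 4 members and 0 to 4079 genes, both highest without EIIa-tg replicate 2. With DESeq2, RLE factors, other count filters and without mitochondrial or NewGene loci Gja1 and Dsc2 remained called. With limma and its filter 2 passed, Gja1 and Pkp2.

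In Myh6 hearts 2 members and 2805 genes passed. The gene count was 5049 with all 12 hearts, where Pkp2 passed too, and 608 genes with 1 member by edgeR under the study's limits. With limma on log2(FPKM + 1) 4 members (Gja1, Gjc1, Pkp2 and Jup) and 4228 genes passed, with a pseudocount of 0.1 again these 4, and without a filter 1 (Jup). Leaving out 1 heart gave 0 to 2 members and 798 to 4269 genes. Between controls 5 genes passed, and 429 with DESeq2, where 2 members passed, 65 without the count filter, 11 with a CPM of at least 1 in 3 hearts, 3 without NewGene loci, 8 and 1 with limma at a pseudocount of 0.1 and without a filter, 8 with replicates 2 and 3 only, and 3 to 98 without 1 heart. For the difference between models 624 genes passed, 1396 with DESeq2, 99 by edgeR under the study's limits and 293 to 1727 without 1 heart. There 1 member passed with DESeq2 (Dsc2), with limma on log2(FPKM + 1) (Gjc1) and without Myh6-tg replicate 1 (Gja1).

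Same-number correlations were 0.14, -0.16 and -0.13 in EIIa hearts and 0.15, 0.08 and -0.11 between controls, which does not show pairing. With the replicate number as a block 0 members and 1 gene passed in EIIa hearts and 0 members and 27 genes between controls. In Myh6 hearts the block turned Cdh2 to -0.0128, which had no call, and the block changed no other call of a member.

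FPKM is not TMM-scaled, and limma on it moved the median log2 difference of all genes to 0.16 and 0.20 in EIIa and to 0.34 and 0.43 in Myh6 hearts (pseudocounts of 1 and 0.1). The share of calls that were higher moved from 51.01% to 78.0% in EIIa, from 48.8% to 78.7% in Myh6 and from 42.1% to 69.1% for the difference. On that scale signs turned for uncalled members, in EIIa hearts for Cdh2 (0.13, and 0.14 at a pseudocount of 0.1), Dsp (0.10 at both), Jup (0.0352 and 0.0356) and Dsg2 (0.0368 and 0.0392), in Myh6 hearts for Dsg2 (0.0513 and 0.056) and Tjp1 (0.0571 and 0.0658), and in the difference for Gja5 (0.0236 and 0.05), Dsg2 (0.0144 and 0.0167) and Tjp1 (0.13 and 0.14). With replicates 2 and 3 only, Cdh2 (-0.28) and Dsp (-0.0365) turned in Myh6 hearts, as did Cdh2 (-0.24) and Tjp1 (0.0135) in the difference. Leaving out 1 heart turned Cdh2 (range -0.33 to 0.22) and Dsp (-0.0302 to 0.38) in Myh6 hearts, Tjp1 between controls (-0.32 to 0.0033), and Cdh2 (-0.27 to 0.27) and Tjp1 (-0.29 to 0.015) in the difference. The cause was not tested. Gja1 and Dsc2 stayed negative in both models under all 18 alternatives, Gja1 from -0.77 to -0.49 in EIIa and -2.19 to -1.21 in Myh6, and Dsc2 from -0.50 to -0.19 and -1.14 to -0.46.

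Relative to 4 cardiomyocyte genes instead of 12, signs turned in EIIa hearts for Gja1 (-0.46), Gja5 (-0.0501), Gjc1 (-0.15), Dsc2 (-0.21) and Tjp1 (-0.0452), and in Myh6 hearts for Gja5 (-0.26), Dsg2 (-0.17), Dsc2 (-0.87) and Tjp1 (-0.17). Relative to the 12 genes, leaving out 1 heart gave Dsc2 a Myh6 range from -0.27 (without Myh6-tg replicate 3) to 0.63. Depth was least for Gja5, with as few as 279 counts in a heart.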
